A study of Mus musculus with 6 samples.

Results

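The 10 genes described here encode the NF-kB subunits (*Nfkb1*, *Nfkb2*, *Rel*, *Rela* and *Relb*) and feedback inhibitors of the pathway (*Nfkbia*, *Nfkbib*, *Nfkbie*, *Nfkbiz* and *Tnfaip3*). They were chosen by name and are 10 of the 17092 genes in the count table. All 10 were among the 13075 genes that passed the filter on low counts and were tested. RNA-seq had been performed on mouse embryonic fibroblasts (MEFs), a primary connective tissue culture grown from embryos, of 2 genotypes, *Aff3ir-ORF2*-/- and wild type (WT), with 3 libraries of each. *Aff3ir-ORF2* is a gene variant nested within *Aff3*, and its role in vascular inflammation was the question of the study. The knockout (KO) was global and was made by injecting guide RNAs and Cas9 mRNA into fertilized eggs, followed by intercrossing of heterozygotes. The labels give no treatment for either genotype, and neither the embryonic age, the sex nor the number of embryos behind a library is stated. Nothing states that the 3 libraries of a genotype came from separate cultures, so the p-values measure only the spread between these libraries, which may be technical.

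NF-kB is a family of dimeric transcription factors that inhibitor of kappa B (IkB) proteins hold in the cytoplasm of resting cells. Cytokines and microbial products activate the IkB kinase (IKK) complex, which marks the IkB proteins for degradation and frees the dimers to enter the nucleus and induce inflammatory and survival genes. Several of the induced genes encode IkB proteins, NF-kB subunits or the ubiquitin-editing enzyme A20 (*Tnfaip3*), which closes negative feedback loops, and in vascular cells the pathway drives adhesion molecules such as *Vcam1* and *Icam1*.

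The promoters of the feedback genes are shown first because NF-kB itself is known to act on several of them. RefSeq promoters on build GRCm38.p6, from 250 bases before to 50 bases after each start site, were given for 7 of the 10 genes. *Nfkb1*, *Relb* and *Nfkbiz* had no entry. The kappa B consensus was searched on both strands as a run of 10 bases, namely 3 G, a purine, 2 bases of any kind, 2 pyrimidines and 2 C. A match was found for 5 of the 7 genes, whereas 9.55% of the 27025 genes in the promoter table and 8.46% of its 32851 promoters held one. The 150 bases before the start site are printed 5′ to 3′ for these 5 genes, with the matching bases in capitals, and where a gene had several start sites the first was used.
Nfkbia, chr12:55492648-55492797, minus strand: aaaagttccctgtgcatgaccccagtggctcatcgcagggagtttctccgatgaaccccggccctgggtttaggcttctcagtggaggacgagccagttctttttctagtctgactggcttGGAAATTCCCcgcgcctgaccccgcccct
Nfkbie, chr17:45555550-45555699, plus strand: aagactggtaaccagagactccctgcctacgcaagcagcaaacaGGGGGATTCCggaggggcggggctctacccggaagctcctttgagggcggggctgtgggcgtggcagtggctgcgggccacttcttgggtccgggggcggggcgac
Tnfaip3, chr10:19015411-19015560, minus strand: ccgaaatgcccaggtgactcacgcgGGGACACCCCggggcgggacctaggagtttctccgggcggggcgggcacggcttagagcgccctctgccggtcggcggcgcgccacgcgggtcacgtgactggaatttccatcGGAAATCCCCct
Nfkb2, chr19:46304587-46304736, plus strand: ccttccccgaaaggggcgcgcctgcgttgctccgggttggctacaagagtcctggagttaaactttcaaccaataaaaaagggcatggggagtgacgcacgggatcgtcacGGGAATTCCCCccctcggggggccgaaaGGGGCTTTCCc
Rel, chr11:23770970-23771119, minus strand: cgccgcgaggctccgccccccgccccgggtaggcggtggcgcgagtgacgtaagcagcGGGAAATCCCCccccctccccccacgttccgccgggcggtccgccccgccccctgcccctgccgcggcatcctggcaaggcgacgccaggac

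The match in *Nfkbia* began 29 bases before the start site, read on the other strand, and that in *Nfkbie* 106 bases before it. *Tnfaip3* held a match from position -125 and another from position -12, the latter read on the other strand. In *Nfkb2* overlapping matches began at -39 and -38 and a separate one at -11, and the promoters of its other start sites held matches as well, whereas the second start site of *Tnfaip3* had none. In *Rel* overlapping matches began at -92 and -91. The promoters of *Rela* and *Nfkbib* held no match in this window. Each match describes the sequence and is not a measured binding site. Of the 5 genes with a match, *Nfkbia*, *Nfkbie* and *Nfkb2* rose in KO MEFs, *Tnfaip3* fell and *Rel* did not pass the test.

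The values are estimated counts rounded to whole numbers, or counts per 1000000 (CPM) after scaling by the trimmed mean of M values (TMM). A gene passed the test at an adjusted p below 0.05 in edgeR's quasi-likelihood test across all 13075 genes, and was called when it also changed by at least 1.5-fold. Total counts were 17435133 to 17726034 in WT and 18209421 to 18252330 in KO libraries. The KO libraries differed more among themselves, with a biological coefficient of variation of 0.0998 against 0.0185 in WT. The host gene *Aff3* had 406, 406 and 418 counts in WT and 229, 186 and 209 in KO MEFs, with a log2 fold change of -1.06 (SE 0.09, adjusted p = 1.23e-05), while the *Aff3ir-ORF2* transcript was not analysed here. Markers of another cell type separated the genotypes. The summed level of 23 macrophage markers was 27.9 to 32.0 CPM in WT and 1485, 2049 and 2535 CPM in KO replicates 1, 2 and 3, and all 22 markers tested were called higher in KO. Among them *Lyz2*, *Mpeg1* and *Ctss* had the highest CPM in KO, not divided by length, and *C1qa*, *C1qb*, *Fcgr1* and *Aif1* were at 0 counts in every WT library. Tested markers that were scarce in WT, such as *C1qa*, *C1qb* and *Fcgr1*, passed the filter on low counts only through the KO libraries. Their direction was therefore fixed in advance. Summed fibroblast markers ran from 31102 to 31212 CPM in WT and from 26171 to 32947 CPM in KO (exact permutation test, p = 0.4), so the defining fibroblast genes were present in both. Of the 15 tested, 4 passed as higher and 5 as lower, with 2 called in each direction. The sum thus hides opposite changes of single genes. In bulk RNA a different number of cells of a type and a different amount of RNA per cell cannot be told apart. The part of the macrophage markers in the results given here was not tested.

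The feedback inhibitors moved in opposite directions. *Nfkbie* was 2.90-fold higher in KO MEFs, whereas *Nfkbiz* was 1.89-fold lower and *Tnfaip3* was 2.06-fold lower, and these were the members called. *Nfkbia* rose by less than 1.5-fold, and *Nfkbib* did not pass the test. Summed over the 5 inhibitors, the level was 180 ± 6.88 CPM in WT and 125 ± 7.59 CPM in KO MEFs (SD, n = 3 each), and the ranges did not overlap (exact permutation test, p = 0.1, the smallest that 3 against 3 libraries can give). Of this sum *Nfkbiz* alone made 108 and 57.3 CPM. The means of *Nfkbia*, *Nfkbib* and *Nfkbie* were higher in KO, so the lower sum does not describe each inhibitor.

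*Nfkbie* encodes IkB epsilon, a cytoplasmic inhibitor that is made with a delay after activation. It had 44, 37 and 39 counts in the WT libraries and 104, 127 and 137 in the KO libraries. All KO values lay above all WT values, and KO replicate 1 was the lowest of the KO libraries. The level rose from 2.30 ± 0.230 to 6.66 ± 0.887 CPM (SD, n = 3 each), and its log2 fold change was 1.54 (SE 0.16, adjusted p = 4.44e-05). Under 15 other fits, which changed the scaling, filter, test or set of libraries, the log2 fold change was 1.44 to 1.63. *Nfkbie* was the scarcest of the 10 transcripts in WT MEFs per length, by coding or by mRNA length.

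*Nfkbiz* encodes IkB zeta, an atypical nuclear IkB protein that can act as a co-activator for a subset of NF-kB targets as well as an inhibitor. Its counts were 1849, 2023 and 1783 in WT and 1012, 1092 and 1059 in KO MEFs. The groups were far apart, with little spread in the KO libraries. The level fell from 108 ± 6.55 to 57.3 ± 1.56 CPM (SD, n = 3 each), with a log2 fold change of -0.92 (SE 0.05, adjusted p = 2.0e-06). *Tnfaip3*, which encodes A20, had 530, 490 and 512 counts in WT and 254, 224 and 305 in KO MEFs. No KO library reached the lowest WT library. The level of *Tnfaip3* fell from 29.3 ± 1.43 to 14.2 ± 2.31 CPM (SD, n = 3 each), with a log2 fold change of -1.05 (SE 0.11, adjusted p = 4.01e-05).

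*Nfkbia* encodes IkB alpha, the rapidly resynthesized inhibitor of the canonical pathway. It had 366, 422 and 390 counts in WT and 461, 481 and 595 in KO MEFs. The groups did not overlap, but KO replicate 3 stood above the other KO libraries. The level was 22.5 ± 1.40 CPM in WT and 27.9 ± 3.97 CPM in KO (SD, n = 3 each), with a log2 fold difference of 0.31 (SE 0.10, adjusted p = 0.0271). Without KO replicate 3 the log2 fold change was 0.18 with an adjusted p of 0.0725. Without WT replicate 1 or WT replicate 3 the adjusted p was 0.0973 or 0.0847, so significance was lost without any of these 3 libraries. *Nfkbib* encodes IkB beta, a constitutive inhibitor that is not rapidly resynthesized. Its counts were 301, 317 and 305 in WT and 354, 346 and 362 in KO MEFs. These ranges did not overlap after scaling, at 17.6 ± 0.331 and 19.2 ± 0.602 CPM (SD, n = 3 each). The difference was small, with a log2 fold change of 0.12 and a 95% interval of -0.02 to 0.27 (adjusted p = 0.137). Exons of *Nfkbib* share 314 bases with *Ccer2* and 42 bases with *Sirt2* on the opposite strand in GENCODE M21. Whether the counting used strand is not given in the sources used here, so reads from such pairs cannot be told apart.

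**Figure D1:**
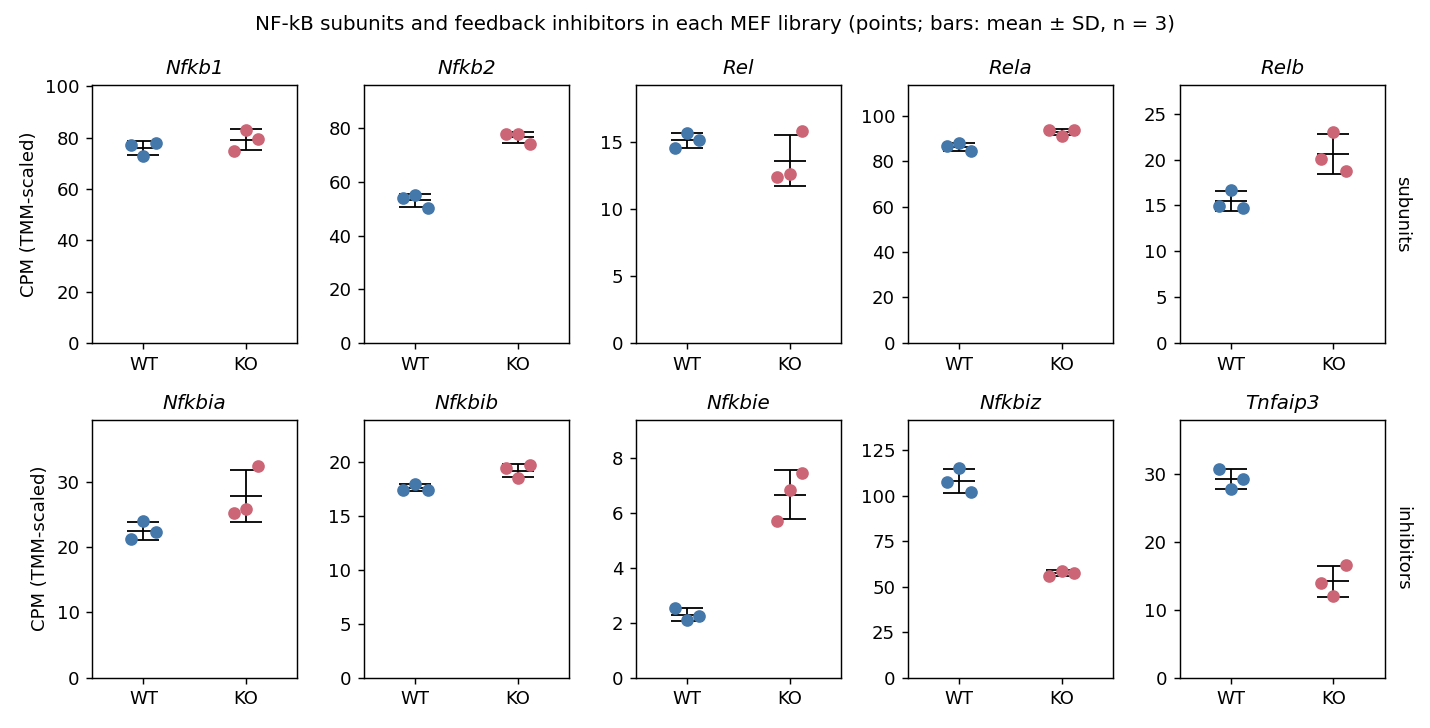
Level of each of the 10 genes in CPM, from 0 on a linear axis, in 3 WT and 3 KO libraries (points), with the mean and SD (bars). *Nfkbie* sits at 2.30 CPM in WT and 6.66 CPM in KO, *Nfkbiz* at 108 and 57.3 CPM and *Tnfaip3* at 29.3 and 14.2 CPM, while *Nfkb1* and *Rel* overlap between the genotypes.

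Among the subunits, *Nfkb2* rose 1.44-fold and *Relb* rose 1.33-fold in KO MEFs, both below the fold required for a call. *Nfkb1*, *Rela* and *Rel* did not pass the test. Summed over the 5 subunits, the level was 246 ± 2.90 CPM in WT and 283 ± 4.42 CPM in KO MEFs (SD, n = 3 each), without overlap (exact permutation test, p = 0.1, the smallest possible). At the 1.5-fold threshold 0 of the 5 subunits were called by edgeR, by DESeq2, by limma or with the unadjusted p.

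*Nfkb2* encodes p100, which is both an IkB-like inhibitor and the precursor of p52. Its counts were 934, 967 and 881 in WT and 1419, 1447 and 1361 in KO MEFs. The KO libraries were uniformly higher. The log2 fold change was 0.53 (SE 0.05, adjusted p = 2.86e-05), with levels of 53.2 ± 2.44 and 76.6 ± 2.10 CPM (SD, n = 3 each). Its exons share 299 bases with *Psd* and 531 bases with a long non-coding RNA on the opposite strand, of 4584 exon bases in all, and its deposited values were not whole numbers in any library. *Relb* encodes RelB, the usual partner of p52. It had 258, 294 and 258 counts in WT and 365, 429 and 345 in KO MEFs. Every KO library exceeded every WT library, with the highest value in KO replicate 2. The log2 fold change was 0.41 (SE 0.09, adjusted p = 0.00415), from 15.5 ± 1.08 to 20.6 ± 2.17 CPM (SD, n = 3 each).

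*Nfkb1* encodes p105, the precursor of p50, and its counts were 1328, 1283 and 1363 in WT and 1364, 1548 and 1457 in KO MEFs. After scaling the groups overlapped, at 76.0 ± 2.67 and 79.1 ± 4.10 CPM (SD, n = 3 each). The log2 fold change of *Nfkb1* had a 95% interval of -0.06 to 0.18 (adjusted p = 0.373), which bounds the difference well below 1.5-fold. *Rela* encodes p65, the main transactivating subunit of the canonical pathway. It had 1493, 1544 and 1475 counts in WT and 1704, 1698 and 1717 in KO MEFs. The scaled levels, 86.3 ± 1.72 and 92.8 ± 1.40 CPM (SD, n = 3 each), did not overlap, but the log2 fold change of 0.10 (95% interval 0.01 to 0.20) missed the threshold at an adjusted p of 0.0595. It passed with upper quartile scaling (adjusted p = 0.0139), with total counts (0.0195), with a stricter filter of 10 counts per library (0.0385) and without KO replicate 2 (0.0248), and over all 15 fits its adjusted p ranged from 0.0139 to 0.203. *Rel* encodes c-Rel, a subunit most abundant in lymphoid and myeloid cells. Its counts were 251, 276 and 265 in WT and 226, 235 and 291 in KO MEFs. KO replicates 1 and 2 lay below the WT libraries and KO replicate 3 above them, with means of 15.1 ± 0.572 and 13.6 ± 1.93 CPM (SD, n = 3 each). The log2 fold change of *Rel* was -0.15 (95% interval -0.39 to 0.08, adjusted p = 0.240), and without KO replicate 3 it was -0.28 with an adjusted p of 0.0233.

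**Figure D2:**
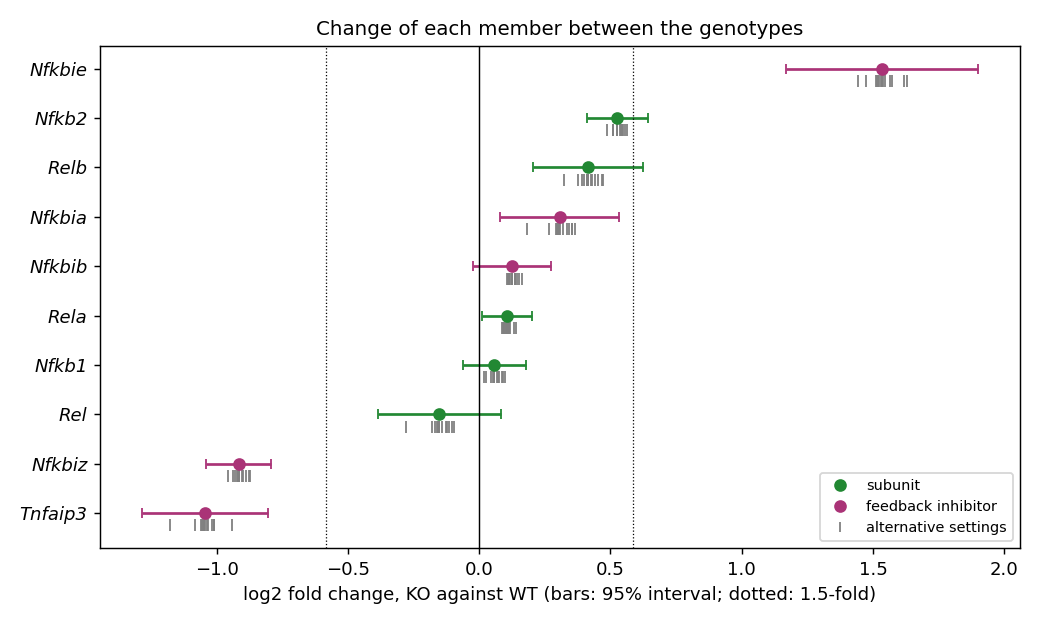
Log2 fold change of each gene, KO against WT, with its 95% interval (coloured points and bars), the values under 15 other fits (grey ticks) and the 1.5-fold limits (dotted lines). *Nfkbie* at 1.54, *Nfkbiz* at -0.92 and *Tnfaip3* at -1.05 lie outside the limits, and no gene changes direction under another fit.

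Counted together, 4 of the 10 genes passed the test as higher in KO (*Nfkb2*, *Relb*, *Nfkbia* and *Nfkbie*), 2 as lower (*Nfkbiz* and *Tnfaip3*) and 4 did not pass. Over all genes tested, 29.3% passed as higher and 27.5% as lower. With the fold threshold, 1 of the 10 was called higher against 14.2% of all genes, and 2 were called lower against 7.27%. For 8 of the 10 genes the WT and KO ranges were separate, as they were for 66.0% of all genes. With 10 genes these shares are near those of the whole table, so the counts alone do not set the family apart. The median log2 fold change was 0.11 over the 10 genes, 0.10 over the subunits, 0.12 over the inhibitors and 0.0056 over all genes tested. Ordered by log2 fold change, *Tnfaip3* stood at the 2.16th percentile of all genes, *Nfkbiz* at the 3.20th and *Nfkbie* at the 94.9th.

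To compare levels between members, CPM were divided by coding length (CPM per kb of coding sequence). In WT MEFs *Rela* made up 45.1% ± 0.216 of the summed subunit level, *Nfkb1* 22.5% ± 1.10, *Nfkb2* 17.0% ± 0.534, *Relb* 7.97% ± 0.453 and *Rel* 7.40% ± 0.261 (SD, n = 3). The levels of *Relb* (8.82 to 9.99) and *Rel* (8.25 to 8.90), neighbours in this order, overlapped in WT. In KO MEFs the share of *Nfkb2* was 21.5% ± 0.643 and that of *Relb* 9.33% ± 0.898, while *Rela* took 42.7% ± 1.12, *Nfkb1* 20.6% ± 0.825 and *Rel* 5.86% ± 0.836 (SD, n = 3). A lower share was not always a lower level. The mean level per kb of coding sequence was 52.4 in WT and 56.3 in KO for *Rela*, and 26.1 and 27.2 for *Nfkb1*. By coding length the levels of *Nfkb1* and *Nfkb2* stood apart in WT and overlapped in KO. Scaled by mRNA length instead, a choice made after seeing the data, *Rel* took 2.66% in WT and 2.05% in KO and *Nfkb2* 22.2% and 27.4%, so the shares depended on the length used. By mRNA length *Rel* no longer overlapped with *Relb* in WT, and *Nfkb2*, below *Nfkb1* in WT (16.1 to 17.5 against 17.7 to 18.95), lay above it in KO without overlap (23.6 to 24.8 against 18.2 to 20.2). With either length each subunit's share moved between the genotypes in the same direction.

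Among the inhibitors the order of levels per kb of coding sequence in WT was *Nfkbiz* at 49.5 ± 3.00, *Nfkbia* at 23.9 ± 1.48, *Nfkbib* at 16.4 ± 0.308, *Tnfaip3* at 12.6 ± 0.616 and *Nfkbie* at 2.06 ± 0.207 (SD, n = 3), with no overlap between neighbours. In KO MEFs the order began with *Nfkbia* at 29.6 ± 4.21 and *Nfkbiz* at 26.2 ± 0.715 (SD, n = 3), and the lowest *Nfkbia* library (26.9) lay next to the highest *Nfkbiz* library (26.8). *Nfkbib* was at 17.9 ± 0.559, and *Tnfaip3* at 6.11 ± 0.993 overlapped with *Nfkbie* at 5.99 ± 0.797 (SD, n = 3).

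Ratios of counts within a library do not depend on scaling between libraries. The ratio of *Nfkbia* to *Nfkbiz* was 0.198, 0.209 and 0.219 in WT and 0.456, 0.440 and 0.562 in KO MEFs, a 2.33-fold difference in the means. The ratio of *Nfkbia* to *Tnfaip3* was 0.771 ± 0.0857 in WT and 1.97 ± 0.167 in KO (SD, n = 3 each). That of *Nfkbie* to *Nfkbia* was 0.103 ± 0.0164 and 0.240 ± 0.0210 (SD, n = 3 each). All of these ratios separated the genotypes. For *Nfkbia* to *Nfkbiz* and *Nfkbia* to *Tnfaip3* this followed from the single genes, whose counts had already separated in opposite directions. The ratio of *Nfkb2* to *Nfkb1* was 0.701 ± 0.0537 in WT and 0.970 ± 0.0611 in KO, and that of *Relb* to *Rela* was 0.179 ± 0.00962 and 0.223 ± 0.0269 (SD, n = 3 each). For *Nfkbia* to *Rela* the ratios were 0.245, 0.273 and 0.264 in WT and 0.271, 0.283 and 0.347 in KO MEFs, which overlapped. Those of *Rel* to *Rela* overlapped as well, at 0.168, 0.179 and 0.180 in WT and 0.133, 0.138 and 0.169 in KO.

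The other genes of the pathway were counted in the same way, beside 29.3% of all genes that passed as higher, 27.5% that passed as lower, 14.2% called higher and 7.27% called lower. Separate ranges of the genotypes, given below for single genes, were found for 66.0% of all genes tested and so do not set a gene apart. Of 22 other NF-kB regulators tested, 13 passed as higher and 1 as lower in KO MEFs, and 3 were called, all higher, with a median log2 fold change of 0.19. *Bcl3*, an atypical nuclear IkB protein, had 116, 83 and 81 counts in WT and 185, 305 and 200 in KO, a log2 fold change of 1.22 (SE 0.23, adjusted p = 0.0023). *Nfkbid*, another nuclear IkB protein, was scarce, having 12, 11 and 12 counts in WT and 29, 25 and 41 in KO, with a log2 fold change of 1.35 (SE 0.29, adjusted p = 0.00312). Both were higher in every KO library. *Tnip3*, an A20-binding protein, had 0, 3 and 3 counts in WT and 33, 69 and 51 in KO, a ratio of 24.2 with a 95% counting interval of 10.8 to 66.9. *Tnip3* passed the filter on low counts only through the KO libraries, which fixed its direction. *Rnf11*, a component of the A20 complex, rose with a log2 fold change of 0.46 (SE 0.05, adjusted p = 7.58e-05). *Tax1bp1*, another A20 adaptor, rose by 0.13 on the log2 scale (adjusted p = 0.0373), and it was no longer significant under 7 of the 15 other fits, where the adjusted p reached 0.130.

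Of 36 genes of the IKK complex and the signalling upstream of it, 18 passed as higher and 8 as lower, and 3 were called, all higher, with a median log2 fold change of 0.21. *Ikbke*, an inducible IKK-related kinase, had 141, 137 and 111 counts in WT and 281, 315 and 326 in KO MEFs, a log2 fold change of 1.17 (SE 0.11, adjusted p = 2.36e-05). *Ticam1*, the TRIF adaptor of Toll-like receptors, had 136, 127 and 125 counts in WT and 271, 312 and 246 in KO, a log2 fold change of 1.02 (SE 0.11, adjusted p = 4.57e-05). Neither gene overlapped between the genotypes. *Card9*, a myeloid signalling adaptor, had 0, 0 and 2 counts in WT and 29, 50 and 56 in KO, a ratio of 64.0 with a 95% counting interval of 17.4 to 533. It too passed the filter only through the KO libraries. The abundant kinase subunit *Csnk2a1* fell slightly, with a log2 fold change of -0.20 (SE 0.04, adjusted p = 0.00259). *Tab2*, an adaptor of the TAK1 kinase, stood at 164 CPM in both genotypes (adjusted p = 0.927). In the 2 lists 0 genes were called lower, by edgeR, DESeq2, limma or the unadjusted p.

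NF-kB target genes moved both ways. Of 46 tested, 21 passed as higher and 11 as lower, 18 were called higher and 7 lower, and the median log2 fold change was 0.35, also with the 1 gene at 0 in all WT libraries set at its bound. Their summed level went the other way, from 13012 ± 79.2 CPM in WT to 10949 ± 480 CPM in KO (SD, n = 3 each), of which *Tnc* alone made 7762 and 5699 CPM (exact permutation test of the sum, p = 0.1, the smallest possible). The median and the sum of the list thus differed in direction. *Icam1*, an adhesion molecule for leukocytes, had 67, 68 and 65 counts in WT and 378, 549 and 532 in KO, a log2 fold change of 2.79 (SE 0.16, adjusted p = 2.36e-06). *Vcam1*, another adhesion molecule, had 2529, 2732 and 2674 counts in WT and 4585, 4649 and 4348 in KO, a log2 fold change of 0.70 (SE 0.05, adjusted p = 2.74e-06). Neither adhesion gene overlapped between the genotypes. *Tnfaip2*, a cytokine-induced gene, rose with a log2 fold change of 0.84 (SE 0.07, adjusted p = 1.08e-05). *Bcl2a1b*, a survival gene of haematopoietic cells, had 1, 1 and 0 counts in WT and 94, 134 and 184 in KO, a ratio of 195 with a 95% counting interval of 53.7 to 1617, and its close paralogs make the assignment of reads uncertain. These genes were higher in every KO library than in any WT library. The summed macrophage markers were as well, as is any gene that separates the genotypes in this direction, and a link between them was not tested.

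Other targets were lower in KO MEFs. *Myc*, the growth-promoting transcription factor, had 2607, 2484 and 2479 counts in WT and 1153, 979 and 1067 in KO, a log2 fold change of -1.32 (SE 0.07, adjusted p = 1.1e-06). *Pim1*, a survival kinase, had a log2 fold change of -1.06 (SE 0.07, adjusted p = 2.55e-06). Both were lower in every KO library. The chemokine genes *Cxcl10* and *Ccl5* were scarce. *Cxcl10* had 49, 61 and 63 counts in WT and 11, 7 and 18 in KO, and *Ccl5* had 38, 44 and 35 in WT and 6, 12 and 11 in KO. Every KO library was below every WT library for both. Their log2 fold changes were -2.33 (SE 0.29, adjusted p = 0.000128) and -2.08 (SE 0.28, adjusted p = 0.000214). By RT-PCR the paper reported the opposite, an increase of both genes in *Aff3ir-ORF2*-/- MEFs. The reason for this difference was not tested. *Tnc*, an extracellular matrix gene, fell with a log2 fold change of -0.45 (SE 0.05, adjusted p = 5.98e-05). *Csf1*, the macrophage growth factor, had 20723, 20837 and 21292 counts in WT and 27248, 19273 and 26743 in KO (log2 fold change 0.15, adjusted p = 0.394). KO replicate 2 stood below the WT libraries, and without it the log2 fold change of *Csf1* was 0.29 with an adjusted p of 3.92e-07.

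**Figure D3:**
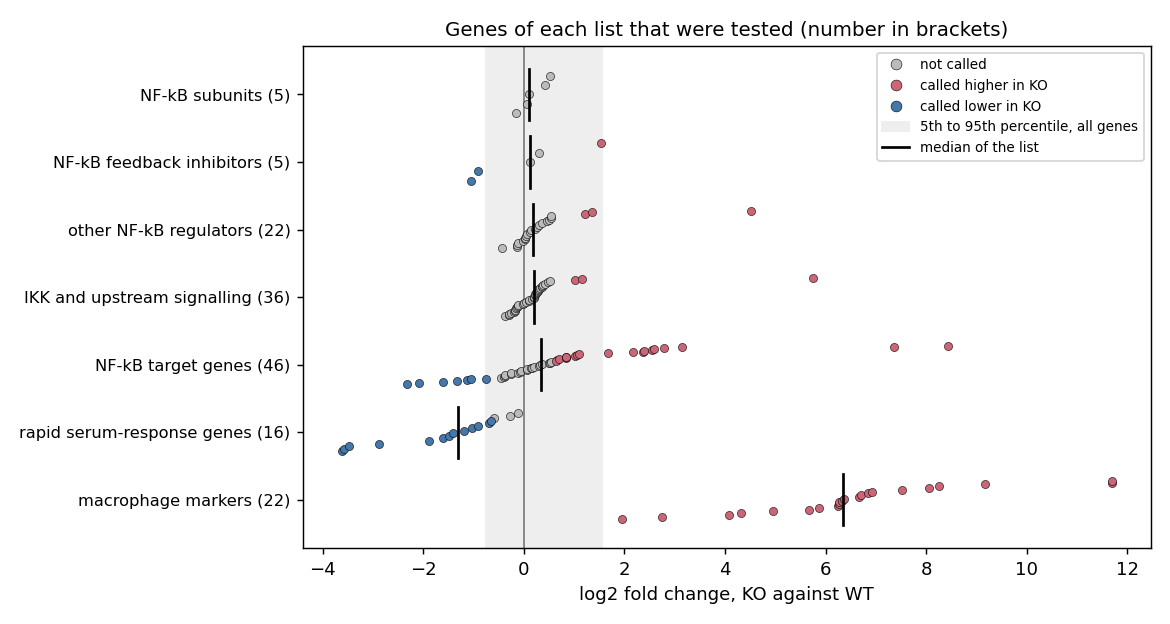
Log2 fold change (x axis), KO against WT, of every tested gene of each list (points), with the median of the list (black bar) and the range from the 5th to the 95th percentile of all genes (grey band). The subunits lie within the band, *Nfkbiz* and *Tnfaip3* are the blue points among the inhibitors, and the macrophage markers lie to the right of 0 without exception. Some of these markers passed the filter on low counts only through the KO libraries, which fixed their direction.

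Summed levels of several other lists differed between the genotypes and are given beside these results. The summed level of 16 rapid serum-response genes was 1459 to 1568 CPM in WT and 501 to 626 CPM in KO MEFs, with 13 of 16 called lower (exact permutation test of the sum, p = 0.1, the smallest possible). *Nfkbiz*, *Tnfaip3* and *Myc*, none of them on that list, were also lower in every KO library. Of all genes tested, 66.0% had separate ranges in either direction, and 27.5% passed the test as lower. In the same libraries *Nfkbie*, *Nfkb2*, *Relb* and *Nfkbia* were higher. Endothelial markers summed to 11.4 to 12.1 CPM in WT and 18.9 to 23.6 CPM in KO, but of 6 tested 3 were called higher (*Kdr*, *Vwf* and *Erg*), 1 lower (*Cdh5*) and 2 did not pass. T cell markers summed to 1.28 to 1.60 CPM in WT and 3.13 to 4.41 CPM in KO, where *Cd28* alone went from 0.344 to 2.50 CPM and *Lck* from 0.841 to 0.686 CPM (adjusted p = 0.511). B cell markers summed to 0.232 to 0.801 and 2.42 to 3.00 CPM, of which *Blnk* alone made 0.324 and 2.56 CPM. Neutrophil and mast cell markers summed to 0.171 to 0.464 and 0.966 to 1.42 CPM, of which *S100a8* made 0.192 and 0.853 CPM. The higher sums of the T cell, B cell and neutrophil lists thus came mainly from 1 gene each. These single markers were named after their values were seen. Epithelial markers overlapped, at 4.18 to 4.92 CPM in WT and 3.65 to 5.44 CPM in KO. The summed level of 4 Y-linked genes was 101 to 109 CPM in WT and 133 to 174 CPM in KO MEFs. Of these *Ddx3y*, *Eif2s3y* and *Uty* were called higher, whereas *Kdm5d* did not pass (log2 fold change 0.07, adjusted p = 0.631). None of these lists was tested for its part in the changes of the NF-kB genes.

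**Figure D4:**
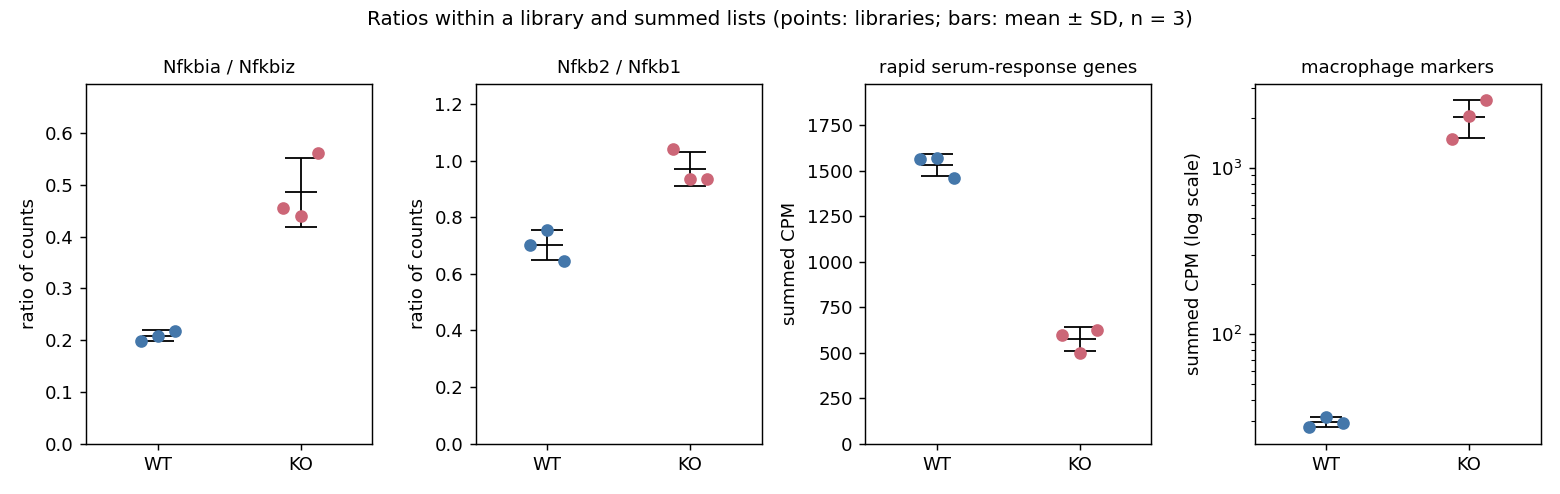
Ratio of *Nfkbia* to *Nfkbiz* counts, ratio of *Nfkb2* to *Nfkb1* counts, summed CPM of rapid serum-response genes and summed CPM of macrophage markers (log axis) in each library (points), with the mean and SD (bars). The genotypes do not overlap in any panel, and the macrophage sum lies between 27.9 and 32.0 CPM in WT and between 1485 and 2535 CPM in KO.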

How the data were processed

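RNA was extracted from WT and *Aff3ir-ORF2*-/- MEFs, sequenced as paired ends on a DNBSEQ platform and filtered with SOAPnuke by the authors. The estimated counts per gene and library were deposited by the authors without normalization. The aligner, the counting tool and the use of strand are not given in the sources used here, and the submitters' processing notes name build mm8. No coordinates of that build were used. Promoters and gene overlaps came from GRCm38.p6 annotations.

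Groups were taken from the sample titles. Counts were rounded to whole numbers, since 10.6 to 11.3% of the values per library were not whole. Of 17092 genes, 13075 passed edgeR's filterByExpr (minimum count 10). All were fitted with TMM scaling and robust quasi-likelihood tests in edgeR 4.0.16 (R 4.3.3), KO against WT, with p-values adjusted by the Benjamini-Hochberg method over all 13075 genes. A call needed an adjusted p below 0.05 and a change of at least 1.5-fold. Sums and ratios were compared by 2-sided exact permutation tests or given as values. Alternatives used DESeq2 1.42.0, limma 3.58.1, other scalings, filters and thresholds, and the omission of each library. Scaling by mRNA length and edgeR without robust estimates were added after seeing the data. The scripts were tested on simulated data.

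Depth was 17435133 to 18252330 counts per library, and counting intervals cover counting error only. Libraries of a genotype were not copies of each other, with chi-square per degree of freedom of 1.38 to 1.71 between WT and 5.56 to 18.9 between KO libraries. These values do not show that the libraries came from separate cultures. The genes and lists were chosen with earlier results of these data known. Named were all 10 members, and from each of the 3 pathway lists up to 4 called genes of smallest adjusted p in each direction and the 2 of highest mean CPM.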

Additional observations from a re-analysis of the deposited data

How the results depend on the processing

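Across the alternatives, 425 log2 fold changes of named genes kept their direction and their side of the threshold, 10 lost significance, 6 gained it and 4 changed sign. The sign changes were those of *Tab2*, near 0, at log2 fold changes of 0.033 with upper quartile factors, 0.024 with total counts, 0.0073 with at least 10 counts in every library and 0.013 without KO replicate 3, and leaving out 1 library at a time gave -0.022 to 0.013. None of the 10 NF-kB genes changed direction under the 15 other fits. The calls of *Nfkbie*, *Nfkbiz* and *Tnfaip3* held in all 15, and *Nfkbiz* was lost only at the 2-fold threshold.

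At a fold threshold of 2, 1096 genes were called higher and 317 lower over the whole table, and 1 member was called lower. With at least 10 counts in every library, which left 12174 genes, 11 target genes were called higher and 4 lower. Leaving out 1 library at a time gave 1780 to 1917 genes called higher and 898 to 1030 lower, and 3 to 5 called higher in the IKK list, with 5 without KO replicate 1. The cause was not tested. Other scalings moved the median of all genes by at most 0.0377 on the log2 scale. edgeR without robust estimates called 1865 genes higher and 957 lower. Same-numbered libraries of the genotypes correlated weakly (0.0386, 0.0424 and 0.0145), although each library correlated best with its own number, and with the replicate block 1854 genes were called higher and 954 lower, with 1 member higher and 2 lower. Among the named genes only *Tax1bp1* lost significance under the block (log2 fold change 0.13, adjusted p = 0.0669). Low counts limit *Nfkbie*, *Nfkbid*, *Tnip3* and *Card9*.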
